A study of Arabidopsis thaliana with 24 samples.

Results

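The inflorescences of Arabidopsis thaliana clf-28 mutants were set against the shoots of the same mutant, gene by gene, to measure how far the difference between a vegetative and a reproductive sample is kept when the vegetative sample itself carries floral transcripts. clf-28 is a mutant of CURLY LEAF (CLF) in the Col-0 background, and the reference genotype is WT, the Col-0 accession. The comparison used 5 of the 24 libraries of the series, each a single-end RNA-seq library that keeps strand: clf-28 inflorescences replicates 1 to 3, from plants aged 5 weeks and raised in soil, and clf-28 shoots replicates 1 and 2, the aerial parts of plants aged 2 weeks and raised on MS plates. The library labelled clf-28 shoots replicate 3 was left out because its profile is that of siliques, as described below. The same organ difference in WT, from 3 inflorescence and 3 shoot libraries at the same ages and on the same media, was used to show where the mutant differs. All plants were kept in long days. Organ, plant age and growth medium change together in both genotypes and cannot be told apart.

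CLF encodes a histone methyltransferase of Polycomb repressive complex 2, which places the repressive mark H3K27me3 on developmental genes. In leaves this mark silences floral homeotic genes such as AGAMOUS (AG) and the flowering signal gene FT, and clf mutants are known for curled leaves, ectopic AG and early flowering. In a normal plant the change to flowering runs from FT and the SPL factors through the meristem identity genes to the MADS-box genes that specify sepals, petals, stamens and carpels. The tissues of the anther and pollen then add their own transcripts, while leaves are dominated by transcripts for photosynthesis.

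All lines of the deposited gene table were considered, 34178 in number, of which 22272 reached 1 FPKM in at least 2 of the 11 libraries and were tested. FPKM is a level already scaled to transcript length and library size. Differences are given on the log2(FPKM + 1) scale, inflorescences minus shoots, so that a positive value means higher in inflorescences and changes of weakly expressed genes are understated. A call needs an adjusted p under 0.05 in limma, and counts of genes higher or lower also need a difference of at least 2-fold on that scale.

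The libraries were of similar breadth, with 18532 to 20840 lines at 1 FPKM or more, but 3 facts touch the results. The excluded library, labelled clf-28 shoots replicate 3, correlated across lines with clf-28 siliques replicates 1 and 2 at a mean Spearman rho of 0.978 and with the clf-28 shoots used here at 0.781, whereas those 2 shoot libraries correlated with each other at 0.986. A further 9 genes of seed storage proteins and oil bodies summed to 194, 501 and 351 FPKM in clf-28 inflorescences replicates 1 to 3 and to 284 and 757 FPKM in clf-28 shoots, against 1.1 to 32.5 FPKM in WT inflorescences and 3.67 to 10.2 FPKM in WT shoots. None of these 9 genes passed the organ test in clf-28, although with the replicate block SESA2 (-0.59), SESA4 (-0.52) and CRU3 (-0.47) passed as lower in inflorescences (adjusted p = 0.0120, 0.0231 and 0.0285). The seed regulators ABI3, LEC1 and LEC2 were at or under 0.127 FPKM on average in either clf-28 organ, FUS3 was higher in clf-28 inflorescences (1.42, adjusted p = 0.00351), and the part of the seed transcripts in other results was not tested. Chloroplast-encoded lines summed to 13280 FPKM in WT inflorescences replicate 1 and to 316 to 1870 FPKM in the other inflorescences of both genotypes. Of 15 root marker genes, 8, among them the root hair genes EXPA7 and RSL4 and the root meristem genes PLT1 and WOX5, were below the filter, and the 7 tested summed to 23.7 to 43.6 FPKM in clf-28 inflorescences and 6.12 to 7.31 FPKM in clf-28 shoots, against 32.3 to 43.6 FPKM in WT inflorescences and 15.4 to 45.7 FPKM in WT shoots. Their part in other results was not tested. In whole organs, fewer cells of a type and less RNA per cell cannot be told apart.

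CLF itself (AT2G23380, chr2:9952867-9963623 on TAIR10) was detected in every library. It had 15.7, 12.1 and 19.5 FPKM in clf-28 inflorescences, against 7.93 and 6.81 FPKM in clf-28 shoots. WT inflorescences had 7.5, 8.25 and 7.31 FPKM, against 8.84, 8.33 and 6.93 FPKM in WT shoots. The clf-28 inflorescences stood above every other library, and the other groups overlapped. In clf-28 the organ difference was 0.98 (SE 0.20, adjusted p = 0.00607), which no longer passed when clf-28 shoots replicate 2 was left out (adjusted p = 0.0533), and in WT it was -0.05 (adjusted p = 0.775). A sum over the whole gene cannot show the mutation, and why the level was higher in clf-28 inflorescences was not tested.

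In clf-28, 4038 lines were at least 2-fold higher in inflorescences than in shoots, 18.1% of those tested, and 2931 were lower, or 13.2%. At 10-fold or more the split was 711 higher and 261 lower, and at 100-fold or more it was 72 higher and 11 lower. Regardless of size, 13771 lines passed the test. The corresponding WT counts were 4009 lines higher (18%) and 2379 lower (10.7%). Counts of list members given below are to be read beside these shares. With the excluded shoot library put back, only 5315 lines passed the test in clf-28, at any size.

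The difference between organs was largely kept in the mutant. Of the 6388 lines that differed at least 2-fold in WT, 97.1% had the same sign in clf-28, 91.2% were called in the same direction and 77.0% were also at least 2-fold, while 82 lines were called the opposite way. Across the tested lines the organ differences of clf-28 and WT correlated at a Pearson r of 0.893, a description over lines that are not independent replicates. The slope of the clf-28 on the WT difference was 0.883 and that of the WT on the clf-28 difference 0.903, so neither is a share kept. The first of these had values from 0.870 to 0.899 over the 6 pairs of 1 clf-28 shoot library and 1 clf-28 inflorescence library. Lines called higher in WT inflorescences had a median of 1.62 in clf-28 and 1.84 in WT, and lines called lower had -1.59 in clf-28 and -1.68 in WT. Chosen instead by their call in clf-28, the higher lines had 1.67 in clf-28 and 1.71 in WT, and the lower lines -1.61 in clf-28 and -1.33 in WT. The comparisons share no library.

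Transcripts detected in inflorescences alone were then counted in each genotype. Lines at 5 FPKM or more in every inflorescence library and under 0.1 FPKM in every shoot library numbered 421 in clf-28 and 354 in WT, of which 247 were common to both, 58.7% of the clf-28 set and 69.8% of the WT set. No line of the WT set reached 1 FPKM in both clf-28 shoot libraries. The reverse pattern was rare, with 21 lines restricted to shoots in clf-28 and 12 in WT.

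The size of the organ difference changed in the mutant for a smaller group. The interaction, the organ difference in clf-28 minus that in WT, passed the test for 1065 lines: 208 had a higher value in clf-28 (0.934%) and 857 a lower one (3.85%). Of the 857, 698 had their larger genotype difference in shoots, and 813 were higher in clf-28 shoots than in WT shoots. Their median genotype difference, clf-28 minus WT, was 1.15 in shoots and -0.22 in inflorescences. Of the 208, 130 had their larger genotype difference in shoots and 30 were higher in clf-28 shoots than in WT shoots. The medians of the 208 were -0.77 in shoots and 0.40 in inflorescences. The interaction equals the genotype difference in inflorescences minus that in shoots. Choosing lines by its sign therefore in large part fixes these directions. Within the 857, the organ difference was smaller but of the same sign in clf-28 for 256 lines, larger of the same sign for 223 and opposite in sign for 378. These counts depend on single libraries: 311 lines passed without clf-28 shoots replicate 1, 380 without clf-28 shoots replicate 2 and 2585 without WT inflorescences replicate 1.

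**Figure D1:**
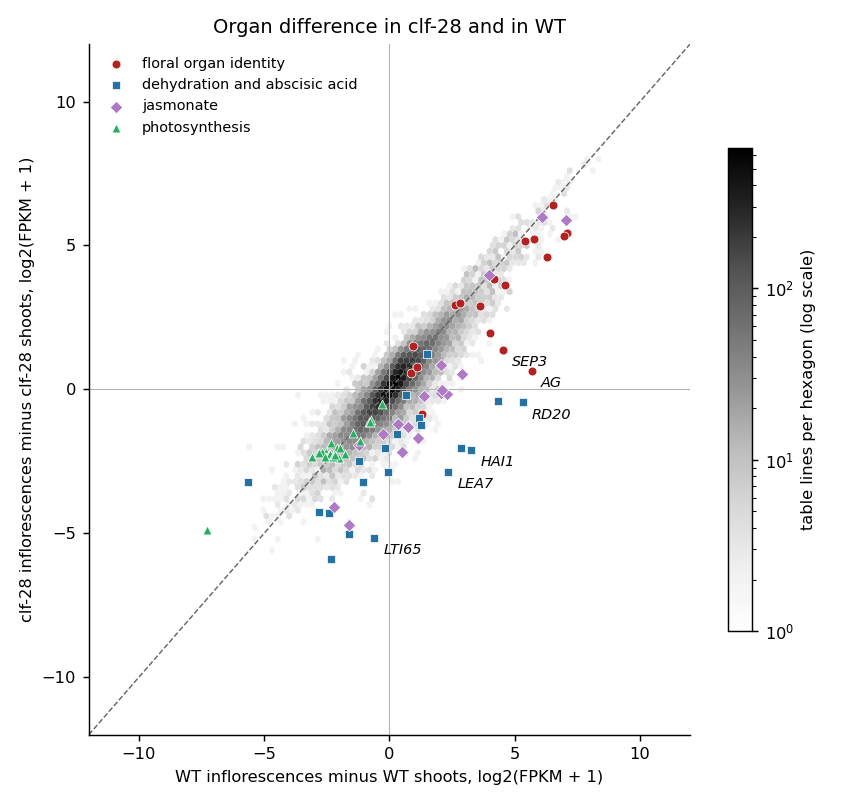
Organ difference (inflorescences minus shoots, log2(FPKM + 1)) in clf-28 on the y axis against that in WT on the x axis for the 22272 lines tested, with the density of all lines in grey, the dashed line where both are equal, and members of 4 gene lists in colour. Photosynthesis genes (green triangles), apart from LHCB1.4, lie along the diagonal and floral organ identity genes (red circles) along or below it, AG furthest. Many dehydration (blue squares) and jasmonate (purple diamonds) genes lie below it, among them the dehydration genes RD20, HAI1, LEA7 and LTI65. Others, such as the dehydration gene GolS1 and the jasmonate gene MYB21, lie near it.

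Most floral organ identity genes kept their inflorescence bias, with a smaller difference in clf-28 for AG and SEP3 and the opposite sign for SEP4. Of 19 genes listed, 18 were tested; in clf-28, 14 were at least 2-fold higher in inflorescences and none was lower by that much, against 16 higher and none lower in WT. The interaction passed for 7 of the 18, each with a lower value in clf-28. The median organ difference was 2.97 in clf-28 and 4.37 in WT, where the median over all lines was 0.14 in clf-28 and 0.18 in WT. Summed over the 18 genes, the level was 931 to 1015 FPKM in clf-28 inflorescences and 163 to 192 FPKM in clf-28 shoots, against 1013 to 1255 FPKM in WT inflorescences and 31.4 to 35.7 FPKM in WT shoots.

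AG (AT4G18960, chr4:10382856-10388539), the class C gene that specifies stamens and carpels, had 77.9, 66.8 and 62.3 FPKM in clf-28 inflorescences, against 48 and 40.0 FPKM in clf-28 shoots. In WT it had 61.5, 64.8 and 72.4 FPKM in inflorescences, against 0.174, 0.408 and 0.364 FPKM in shoots. The inflorescences of the genotypes overlapped, and the clf-28 shoots stood far above the WT shoots and just under the inflorescences. The organ difference was 0.64 in clf-28 (SE 0.15, adjusted p = 0.0102) and 5.68 in WT (SE 0.14), and the interaction of -5.04 (SE 0.19, adjusted p = 5.71e-06) passed under every alternative run. Without clf-28 shoots replicate 2 the clf-28 difference itself was 0.51 (adjusted p = 0.0920).

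SEP3 (AT1G24260, chr1:8593558-8596105), a class E cofactor of the floral MADS complexes, showed the same arrangement. Its levels were 150.1, 152 and 167 FPKM in clf-28 inflorescences, against 65.1 and 54.8 FPKM in clf-28 shoots. WT inflorescences had 250.4, 177 and 142 FPKM, against 11.5, 6.31 and 4.56 FPKM in WT shoots. The organs did not overlap in either genotype, and the clf-28 shoots lay between the WT shoots and all inflorescences. The organ difference was 1.37 in clf-28 (adjusted p = 0.000240) and 4.54 in WT, with an interaction of -3.17 (SE 0.43, adjusted p = 0.00370).

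SEP4 (AT2G03710, chr2:1129268-1131838), another class E gene, was the member whose order turned round. It had 21.4, 21.1 and 20.0 FPKM in clf-28 inflorescences, against 42.6 and 34.8 FPKM in clf-28 shoots, and it fell below the shoots in all 3 libraries (organ difference -0.85, adjusted p = 0.00138). WT inflorescences had 18.4, 14.6 and 15.5 FPKM, against 5.29, 5.88 and 6.98 FPKM in WT shoots (1.28, adjusted p = 0.000793). With clf-28 shoots replicate 3 put back, the clf-28 value was 0.01 and no longer passed. SHP2, a carpel gene close to AG, had 28.3, 25.1 and 25.6 FPKM in clf-28 inflorescences and 6.78 and 5.26 FPKM in clf-28 shoots, and 18.6, 21.8 and 21.5 FPKM in WT inflorescences and 0.48, 0.264 and 0.223 FPKM in WT shoots. Its interaction was -2.06 (adjusted p = 0.000570).

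The class A gene AP1 and the class B genes AP3 and PI, which specify petals and stamens, were low in clf-28 shoots and remained far higher in inflorescences. AP1 had 45.5, 38.4 and 33.9 FPKM in clf-28 inflorescences, against 0.699 and 0.571 FPKM in clf-28 shoots. AP3 had 131, 110.4 and 123 FPKM in clf-28 inflorescences, against 1.73 and 1.94 FPKM in clf-28 shoots. PI had 164, 148 and 158 FPKM in clf-28 inflorescences, against 3.39 and 2.58 FPKM in clf-28 shoots. No library of one organ reached those of the other for any of them. Their organ differences of 4.61, 5.43 and 5.31 in clf-28 compared with 6.29, 7.11 and 6.97 in WT, and the interactions were -1.68, -1.67 and -1.65. Those of AP1 (adjusted p = 0.0112) and AP3 (adjusted p = 0.0124) were lost without clf-28 shoots replicate 1 (-1.62 and -1.73). They were also lost without clf-28 shoots replicate 2 (-1.73 and -1.62). With a pseudocount of 0.1 FPKM that of AP3 did not pass (-3.03, adjusted p = 0.121). The interaction of PI (adjusted p = 0.00162) passed under every alternative run.

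The remaining members did not pass the interaction test. SEP1 and SEP2, class E genes close to SEP3 in function, differed by 5.21 and 6.40 in clf-28 and by 5.78 and 6.53 in WT. SEP2 had 119, 114 and 121 FPKM in clf-28 inflorescences, against 0.371 and 0.45 FPKM in clf-28 shoots. STK, the ovule identity gene, had 65, 53.9 and 56.2 FPKM in clf-28 inflorescences, against 0.465 and 0.844 FPKM in clf-28 shoots (5.17, adjusted p = 2.29e-06). The other tested members, AP2, SHP1, AGL6, AGL13, LFY, CAL, FUL and SUP, passed the organ test in clf-28 with differences from 0.56 for AP2 to 3.83 for SHP1. LFY, the meristem identity factor, was low throughout, with 1.12, 1.32 and 1.78 FPKM in clf-28 inflorescences and 0.389 and 0.407 FPKM in clf-28 shoots, and its value changed from 0.77 to -0.01 under quantile normalization. UFO, an F-box partner of LFY, was below the filter, at 0.115 FPKM on average in clf-28 inflorescences and 0.124 FPKM in clf-28 shoots.

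**Figure D2:**
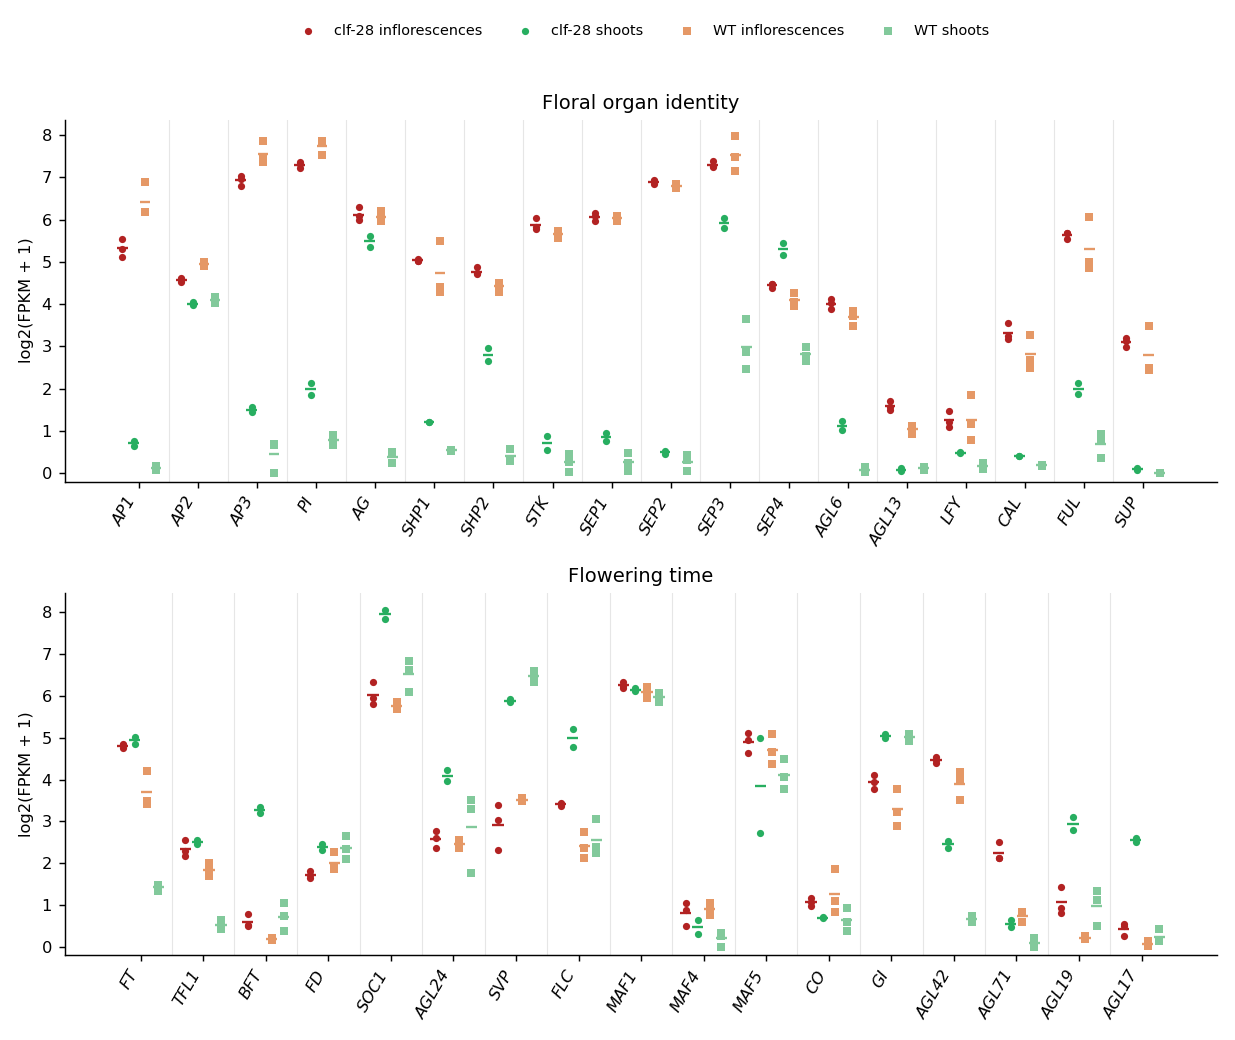
log2(FPKM + 1) in each library for the tested floral organ identity and flowering time genes, with clf-28 as circles and WT as squares, inflorescences left of shoots, and bars at the mean of the log2 values. The 2 clf-28 shoot libraries stand close to the inflorescences for AG and FT, within 2 log2 units for SEP3, and far below them for AP1, AP3 and PI.

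Flowering time genes, which act in the leaf and the shoot tip before flowers form, were more often on the shoot side in clf-28 than on the inflorescence side. Of 22 listed, 17 were tested; in clf-28, 2 were at least 2-fold higher in inflorescences and 8 lower, against 3 higher and 2 lower in WT. The interaction passed for 7, with 1 higher and 6 lower in clf-28. The median organ difference was -0.66 in clf-28 and -0.15 in WT, and the median genotype difference, clf-28 minus WT, was 1.23 in shoots and 0.36 in inflorescences.

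FT (AT1G65480, chr1:24331428-24333934), the mobile signal made in leaves, had 26, 27.3 and 27.8 FPKM in clf-28 inflorescences, against 28 and 31.6 FPKM in clf-28 shoots. WT inflorescences had 17.4, 9.68 and 10.2 FPKM, against 1.78, 1.77 and 1.52 FPKM in WT shoots. The organ difference of FT passed in WT (2.27, adjusted p = 0.000440) and did not pass in clf-28 (-0.13, SE 0.11, adjusted p = 0.319), and the interaction was -2.40 (SE 0.28, adjusted p = 0.00161). TFL1, a repressor of floral identity from the same protein family, had 3.52, 3.91 and 4.92 FPKM in clf-28 inflorescences and 4.52 and 4.88 FPKM in clf-28 shoots, against 3.0, 2.25 and 2.51 FPKM in WT inflorescences and 0.35, 0.408 and 0.555 FPKM in WT shoots. Its interaction of -1.48 also passed (adjusted p = 0.00452).

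BFT, a further member of that family, was high in clf-28 shoots alone. It had 0.417, 0.435 and 0.721 FPKM in clf-28 inflorescences, against 9.19 and 8.22 FPKM in clf-28 shoots, with 0.152, 0.122 and 0.113 FPKM in WT inflorescences and 0.301, 1.06 and 0.67 FPKM in WT shoots (interaction -2.13, adjusted p = 0.00173). With a pseudocount of 0.1 FPKM the BFT interaction did not pass (-2.21, adjusted p = 0.0615). The MADS-box gene AGL17, known as a promoter of flowering, had 0.194, 0.467 and 0.409 FPKM in clf-28 inflorescences, against 5.05 and 4.64 FPKM in clf-28 shoots, and at most 0.341 FPKM in any WT library (-1.95, adjusted p = 0.000849). AGL19, a related promoter of flowering and a known Polycomb target, had 0.748, 0.903 and 1.71 FPKM in clf-28 inflorescences, against 7.61 and 5.88 FPKM in clf-28 shoots (-1.89, adjusted p = 0.000598), but its interaction of -1.11 did not pass (adjusted p = 0.116).

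FLC (AT5G10140, chr5:3173497-3179500), the vernalization-responsive repressor of flowering, was lower in clf-28 inflorescences. It had 9.74, 9.34 and 9.84 FPKM in clf-28 inflorescences, against 36.1 and 26.3 FPKM in clf-28 shoots (-1.58, adjusted p = 0.000231). The WT inflorescences had 5.67, 3.36 and 4.13 FPKM, against 7.35, 4.22 and 3.71 FPKM in WT shoots, which overlapped. The interaction of -1.43 (adjusted p = 0.0475) was lost in 8 of the 11 settings that left out 1 library, among them clf-28 shoots replicate 1 (-1.21, adjusted p = 0.238). SVP, the repressor that acts with FLC, fell alike in clf-28 (-2.98) and WT (-2.95), with 3.95, 7.13 and 9.5 FPKM in clf-28 inflorescences against 60.3 and 56.5 FPKM in clf-28 shoots. SOC1, the integrator these factors repress, had 55, 60.6 and 80.1 FPKM in clf-28 inflorescences, against 266 and 229.5 FPKM in clf-28 shoots (-1.92, adjusted p = 0.000271), but -0.08 and no call with clf-28 shoots replicate 3 put back.

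The SOC1 relatives AGL42 and AGL71 were the flowering time genes that were at least 2-fold higher in clf-28 inflorescences. AGL42 had 22.4, 19.9 and 21.2 FPKM in clf-28 inflorescences and 4.81 and 4.12 FPKM in clf-28 shoots, against 10.4, 17.1 and 14.9 FPKM in WT inflorescences and 0.518, 0.565 and 0.666 FPKM in WT shoots. AGL71 had 3.34, 3.36 and 4.68 FPKM in clf-28 inflorescences and 0.55 and 0.376 FPKM in clf-28 shoots, against 0.764, 0.504 and 0.742 FPKM in WT inflorescences and 0, 0.16 and 0.0206 FPKM in WT shoots. Their interactions had opposite signs, -1.21 for AGL42 (adjusted p = 0.0216) and 1.05 for AGL71 (adjusted p = 0.0257). Both interactions depended on the pseudocount. That of AGL71 was 0.41 with 0.1 FPKM (adjusted p = 0.773), and that of AGL42 was -0.30 with 5 FPKM (adjusted p = 0.429). Each was lost in 5 of the 11 settings that left out 1 library, with adjusted p = 0.0747 for AGL42 and 0.140 for AGL71 without clf-28 shoots replicate 2.

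The SPL genes of the age pathway, which promote flowering as miR156 declines, rose in clf-28 inflorescences as they did in WT. Of 11 genes, 9 were at least 2-fold higher in clf-28 and 10 in WT, and none was lower in either. SPL9 had 37.4, 42.5 and 50.6 FPKM in clf-28 inflorescences, against 6.62 and 6.99 FPKM in clf-28 shoots (2.50, adjusted p = 3.24e-05). SPL5, a direct activator of floral meristem genes, had 14.8, 12.7 and 13.3 FPKM in clf-28 inflorescences and 1.8 and 1.23 FPKM in clf-28 shoots, against 38.7, 31.8 and 22.6 FPKM in WT inflorescences and 0.439, 0.805 and 0.817 FPKM in WT shoots. It was the member that passed the interaction test (-1.68, adjusted p = 0.0115), and did not do so when clf-28 shoots replicate 1 was left out. Of the tested members, SPL13A alone did not pass the organ test in clf-28, and SPL11 is on 2 lines of the table, so its value is uncertain.

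Most carpel and ovule genes were on the inflorescence side in both genotypes. Of 14 tested, 10 were at least 2-fold higher in clf-28 inflorescences and none lower, against 9 and none in WT, and NGA3, which was lower in clf-28 inflorescences (-0.58, adjusted p = 0.00776), was the member whose interaction passed (-0.81, adjusted p = 0.0456), a call lost in 10 of 11 settings that left out 1 library, with adjusted p = 0.207 without clf-28 shoots replicate 1. CRC, a carpel and nectary factor, had 29.4, 25.3 and 26 FPKM in clf-28 inflorescences, against 0 and 0.0986 FPKM in clf-28 shoots (4.73, adjusted p = 1.78e-06), and INO, of the outer integument, had 8.77, 12 and 11.1 FPKM, against values listed at 0 in both clf-28 shoots. AG transcript was present in clf-28 shoots while CRC and INO stood at or near 0 there.

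Of 12 meristem and boundary genes, 7 were at least 2-fold higher and 1 was lower in each genotype, and none passed the interaction test. STM, which maintains the shoot meristem, had 41.5, 39.9 and 47.2 FPKM in clf-28 inflorescences, against 5.27 and 3.87 FPKM in clf-28 shoots (2.98, adjusted p = 1.67e-05). WUS, which specifies the stem cell niche, had 11.8, 6.55 and 6.88 FPKM in clf-28 inflorescences, against 0.0644 and 0.0953 FPKM in clf-28 shoots (3.08). The receptor kinase gene CLV1 was the one that fell, with 12.1, 11.2 and 9.88 FPKM in clf-28 inflorescences and 38.1 and 39.3 FPKM in clf-28 shoots. Of the 14 leaf development genes, 5 were at least 2-fold lower and AS2 was higher in clf-28. YAB5, of the YABBY family of abaxial identity factors, had 7.78, 5.47 and 5.56 FPKM in clf-28 inflorescences, against 38.7 and 30.6 FPKM in clf-28 shoots (-2.30). KNAT3 was the member with a passing interaction (-1.25, adjusted p = 0.0398), lost in 8 of 11 settings that left out 1 library, the widest being without clf-28 shoots replicate 1 (adjusted p = 0.205), and under the replicate block (-1.20).

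Genes of the late tapetum and pollen coat had the largest median difference between organs of any list and were nearly absent from clf-28 shoots. All 11 genes of the late tapetum and pollen coat list were at least 2-fold higher in inflorescences in both genotypes, with a median of 6.05 in clf-28 and 7.38 in WT. They summed to 1406 to 1700 FPKM in clf-28 inflorescences and 3.04 to 4.13 FPKM in clf-28 shoots, against 3295 to 4240 FPKM in WT inflorescences and 2.09 to 7.0 FPKM in WT shoots. For 5 of the 11 the interaction passed, each with a lower value in clf-28, but for 2 without clf-28 shoots replicate 1, without clf-28 shoots replicate 2 or with a pseudocount of 0.1 FPKM. Unlike the floral identity genes, they had a median genotype difference, clf-28 minus WT, of -1.25 in inflorescences and 0.00 in shoots.

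A9, a tapetum marker, had 72.4, 60.3 and 54.1 FPKM in clf-28 inflorescences, against 0.106 and 0.135 FPKM in clf-28 shoots. WT inflorescences had 147, 142 and 126 FPKM, against 0, 0.109 and 0 FPKM in WT shoots. The clf-28 inflorescences lay wholly below the WT inflorescences, and the interaction of -1.26 (SE 0.19, adjusted p = 0.00534) passed under every alternative run. EXL6, a pollen coat lipase gene, had 82.1, 68.3 and 63.1 FPKM in clf-28 inflorescences, against 188, 165 and 161 FPKM in WT inflorescences, with no shoot library above 0.257 FPKM (-1.33, adjusted p = 0.00541). With a pseudocount of 0.1 FPKM the EXL6 interaction did not pass (-1.73, adjusted p = 0.144). EXL4, TSM1 and ATA20 were the others, with interactions of -1.46, -1.40 and -1.39. All 3 were lost when either clf-28 shoot library was left out, with adjusted p for ATA20 of 0.0819 without replicate 1 and 0.0926 without replicate 2. The pollen coat gene GRP19 had 660.1, 571 and 581 FPKM in clf-28 inflorescences, against 0.215 and 1.04 FPKM in clf-28 shoots (8.58), and did not pass the interaction test (adjusted p = 0.664).

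The 6 tested genes of sporopollenin synthesis, which build the pollen wall, were also all at least 2-fold higher in inflorescences of both genotypes, and none passed the interaction test, though 3 did, with lower values in clf-28, without WT inflorescences replicate 1. MS2, a fatty acyl reductase of the pollen wall, had 24.7, 18 and 13 FPKM in clf-28 inflorescences, against 0.0117 and 0.0239 FPKM in clf-28 shoots. Of 10 tapetum regulators, 7 were higher in clf-28 and none lower. AMS, a bHLH regulator of tapetum development, had 11.6, 9.36 and 8.21 FPKM in clf-28 inflorescences, against 0.10 and 0.0988 FPKM in clf-28 shoots (3.27, adjusted p = 1.58e-05). bHLH91, a related factor, was the regulator whose interaction passed (-1.15, adjusted p = 0.0339), lost in 9 of 11 settings that left out 1 library, among them clf-28 inflorescences replicate 2 (adjusted p = 0.0971), and under the replicate block (-1.14). Without WT inflorescences replicate 1 the interaction passed for 4 of the 10.

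Pollen genes were likewise on the inflorescence side. Of 14 tested, 12 were at least 2-fold higher in inflorescences and none lower in each genotype, with medians of 2.84 in clf-28 and 2.96 in WT. Their summed level was 742 to 773 FPKM in clf-28 inflorescences and 13.6 to 13.8 FPKM in clf-28 shoots, against 629 to 812 FPKM in WT inflorescences and 8.66 to 10.2 FPKM in WT shoots. VGD1, a pectin methylesterase of the growing pollen tube, had 409, 424 and 463 FPKM in clf-28 inflorescences, against 0.326 and 0.555 FPKM in clf-28 shoots (8.24, adjusted p = 8.59e-07). ANX2, a receptor kinase that keeps the pollen tube intact, had 18.1, 16.7 and 18.1 FPKM in clf-28 inflorescences, against 7.85, 10.8 and 8.72 FPKM in WT inflorescences. MYB120, a pollen tube regulator, had 1.72 and 2.05 FPKM in clf-28 shoots, against 0.507, 0.0823 and 0.0819 FPKM in WT shoots. Their interactions of 0.86 (adjusted p = 0.0318) and -1.65 (adjusted p = 0.0477) were each lost in 9 of 11 settings that left out 1 library, without clf-28 shoots replicate 1 with adjusted p = 0.157 and 0.155, and under the replicate block (0.86 and -1.67).

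**Figure D3:**
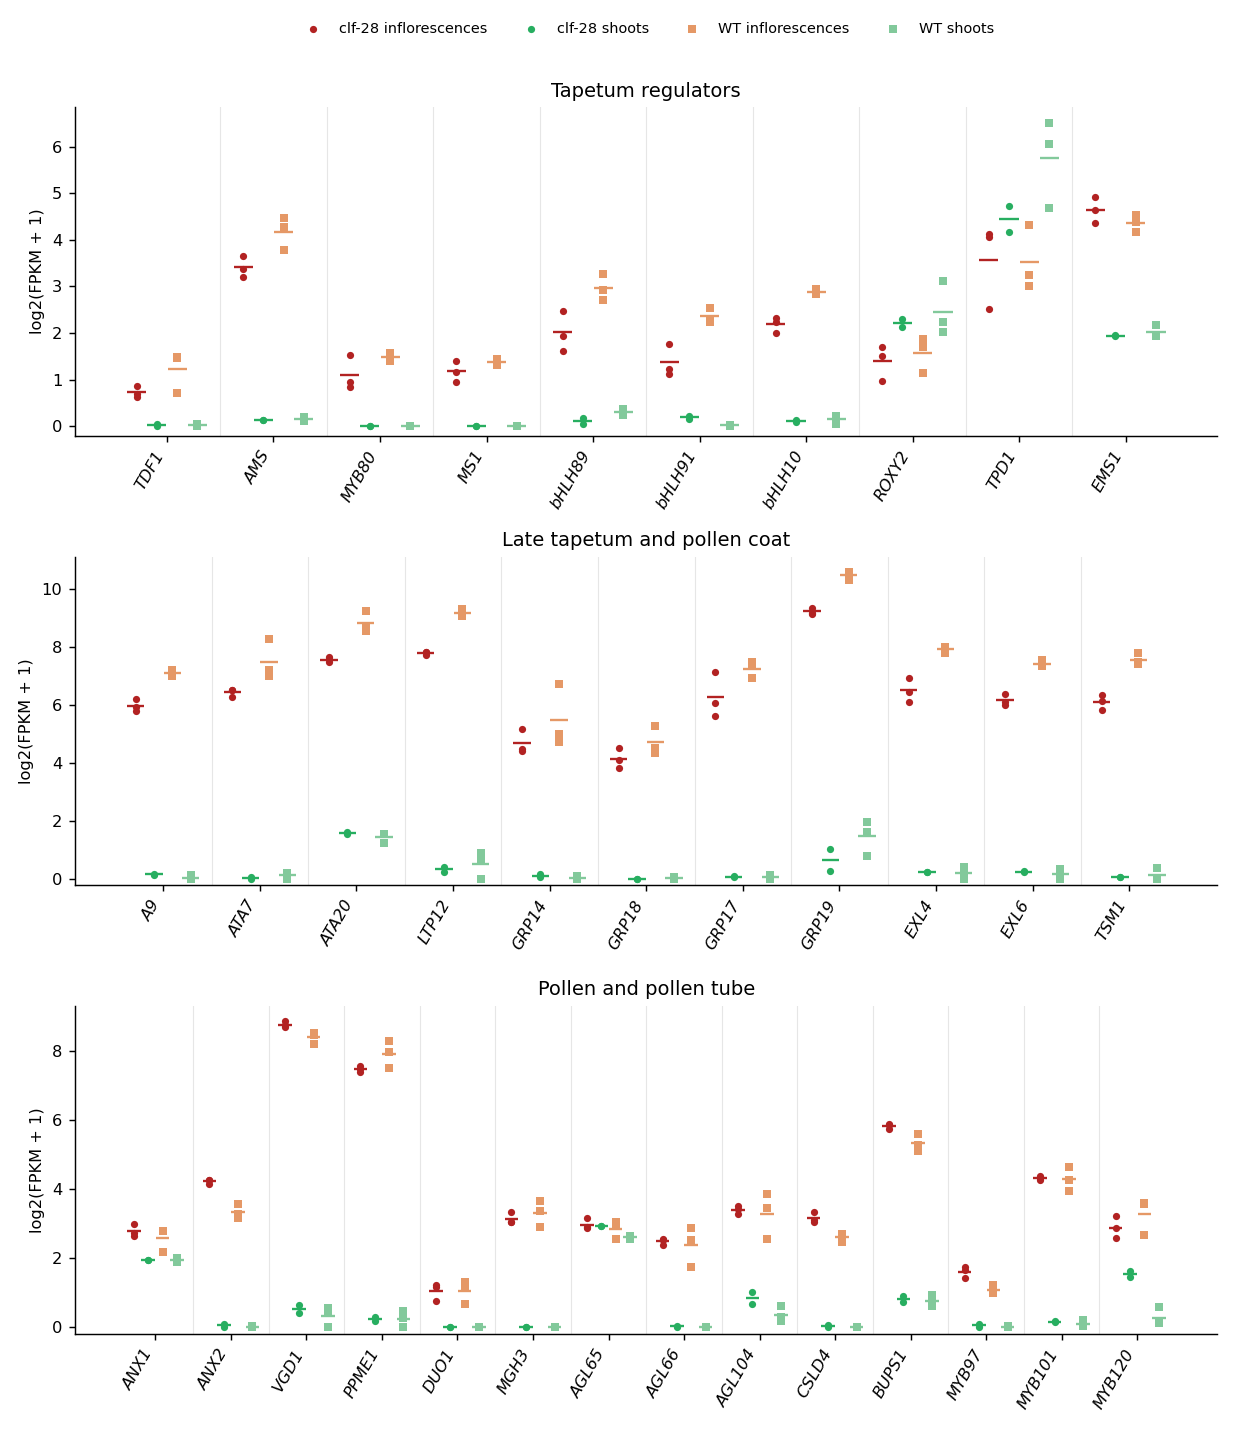
log2(FPKM + 1) in each library for the tested genes of the tapetum, pollen coat and pollen, with clf-28 as circles and WT as squares, inflorescences left of shoots, and bars at the mean of the log2 values. Most genes are higher in the inflorescences of both genotypes, ROXY2, TPD1 and AGL65 being exceptions, and the clf-28 inflorescences lie below the WT inflorescences for A9 and EXL6.

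The largest rises in clf-28 were ranked among called genes that carry a symbol and whose organs did not overlap. All 6969 lines called at 2-fold or more met this last condition, so it removed none. THI2.1, which encodes an antimicrobial thionin, led with 1052, 1384 and 1621 FPKM in clf-28 inflorescences, against 0.918 and 2.75 FPKM in clf-28 shoots (8.96, SE 0.32, adjusted p = 5.57e-06). The pollen arabinogalactan protein genes AGP6, AGP11 and AGP23 differed by 8.11, 8.0 and 8.65, the pectin-degrading enzyme gene PGA4 by 8.27, the peptide gene RALFL15 by 8.48, and sks13, MEE26 and MLP168 by 8.66, 7.90 and 7.71. GRP19 and VGD1, given above, ranked there as well. None of these genes passed the interaction test, the smallest adjusted p among them being 0.240 for AGP6. GA3OX3, a gibberellin synthesis gene, also ranked among the rises (8.10), but it lies on 3 lines of the table and was listed at 0 in all shoots.

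The largest falls were ranked in the same way. IGMT4, an indole glucosinolate methyltransferase, had 1.31, 3.41 and 2.66 FPKM in clf-28 inflorescences, against 392 and 364 FPKM in clf-28 shoots (-6.83, adjusted p = 7.22e-06). The glutathione transferase genes GSTF2 and GSTF7 differed by -6.41 and -6.08, AZI1, of systemic immunity, by -5.62, the receptor-like protein gene RLP19 by -5.50 and the BTB and TAZ domain gene BT1 by -5.86. RAV2, a repressor of flowering also known as TEM2, had 0.465, 1.31 and 0.636 FPKM in clf-28 inflorescences, against 92.8 and 103 FPKM in clf-28 shoots, and 1.88, 0.626 and 0.561 FPKM in WT inflorescences, against 250.3, 236 and 263 FPKM in WT shoots. Its organ difference was -5.80 in clf-28 and -7.01 in WT. STOP1, RPP4 and SNRK2.9 ranked here too (-8.76, -8.16 and -5.57), but each lies on several lines of the table and is uncertain, and the call on RPP4 was lost without clf-28 inflorescences replicate 3 (adjusted p = 0.137), clf-28 shoots replicate 1 (0.102) or clf-28 shoots replicate 2 (0.134).

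Photosynthesis transcripts fell to a similar extent in both genotypes. Of 25 genes tested, 24 were at least 2-fold lower in clf-28 inflorescences and 21 in WT, none was higher, and none passed the interaction test. Under quantile normalization 11 were lower by that much in clf-28, and 1 passed the interaction test without WT inflorescences replicate 1. The medians were -2.21 in clf-28 and -2.24 in WT. Summed FPKM was 31630 to 40360 in clf-28 inflorescences and 150800 to 151700 in clf-28 shoots. RBCS1A, a small subunit of Rubisco, had 7606, 6858 and 7812 FPKM in clf-28 inflorescences, against 22830 and 19750 FPKM in clf-28 shoots (-1.52, adjusted p = 0.000943), and LHCB1.4, a light-harvesting protein of photosystem II, was the member furthest apart (-4.90). The 9 photorespiration genes were all at least 2-fold lower in clf-28 and 5 of them in WT, with medians of -2.19 and -1.63. None passed the interaction test with all 11 libraries. Summed FPKM was 2500 to 4567 in clf-28 inflorescences and 17910 to 24740 in clf-28 shoots. The WT sums ranged more widely, 5909 to 14750 in inflorescences and 9131 to 36750 in shoots. With clf-28 shoots replicate 3 put back, the count lower in clf-28 was 0. GGT1, the glyoxylate aminotransferase, had 258, 248 and 265 FPKM in clf-28 inflorescences, against 1634 and 1495 FPKM in clf-28 shoots.

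Glucosinolate genes, which make the mustard oil precursors of the leaf, were 12 of 14 lower in clf-28 and 9 of 14 in WT. MAM1, an elongase of methionine chains, had 10.7, 8.85 and 11.4 FPKM in clf-28 inflorescences, against 266 and 268 FPKM in clf-28 shoots (-4.58, adjusted p = 2.43e-06). The myrosinase gene TGG2 went the other way, with 1411, 1234 and 1341 FPKM in clf-28 inflorescences, against 564 and 529 FPKM in clf-28 shoots (1.28). Of 12 defence and senescence genes, 5 were lower and 2 higher in clf-28, and the senescence protease gene SAG12, higher in inflorescences of both genotypes, had 18.9, 25.8 and 26.8 FPKM in clf-28 inflorescences, against 331, 76.3 and 131 FPKM in WT inflorescences.

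Among the 26 lists with at least 5 tested members, dehydration and abscisic acid genes had the widest gap between the median organ differences of clf-28 and WT. The lists were chosen with earlier results of these data known, so this rank is a description and not a test. These genes respond to drought, cold and the hormone abscisic acid, and encode protective proteins, signalling phosphatases and transcription factors. Of 25 listed, 20 were tested; in clf-28, 1 was at least 2-fold higher in inflorescences and 15 lower, against 6 higher and 6 lower in WT. The interaction passed for 13 of the 20, each with a lower value in clf-28. The median organ difference was -2.28 in clf-28 and 0.13 in WT, and the median genotype difference was 3.19 in shoots and 0.45 in inflorescences.

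LTI65, a protective protein gene also called RD29B (AT5G52300, chr5:21237056-21239529), had 0.30, 0.166 and 0.433 FPKM in clf-28 inflorescences, against 47.5 and 42.6 FPKM in clf-28 shoots. In WT it stood at 0, 0.0169 and 0.026 FPKM in inflorescences, against 0.711, 0.578 and 0.374 FPKM in shoots. Only the clf-28 shoots were high. The organ difference was -5.15 in clf-28 (adjusted p = 1.88e-06) and -0.61 in WT, with an interaction of -4.54 (SE 0.19, adjusted p = 6.86e-06). RD29A, its neighbour in the genome and in function, had 10.6, 8.79 and 13.5 FPKM in clf-28 inflorescences and 401 and 362 FPKM in clf-28 shoots, against 9.29, 5.14 and 4.21 FPKM in WT inflorescences and 15.8, 21.4 and 23.2 FPKM in WT shoots. GolS2, a galactinol synthase, followed the same pattern, with 0.454, 0.331 and 0.28 FPKM in clf-28 inflorescences and 78.4 and 78.9 FPKM in clf-28 shoots (-5.88, interaction -3.54).

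Other genes of the list were high in inflorescences of both genotypes and low in WT shoots alone. RD20, which encodes a caleosin of lipid droplets (AT2G33380, chr2:14144831-14146471), had 372, 243 and 325 FPKM in clf-28 inflorescences, against 466 and 381 FPKM in clf-28 shoots. In WT it had 155, 347 and 652 FPKM in inflorescences, against 2.94, 9.14 and 13.1 FPKM in shoots. The clf-28 inflorescences lay just below the clf-28 shoots, and both lay within the range of the WT inflorescences and far above the WT shoots. The organ difference was -0.45 in clf-28 (adjusted p = 0.119) and 5.31 in WT. The interaction was -5.76 (SE 0.82, adjusted p = 0.00491). NAC019, a NAC transcription factor of abscisic acid and jasmonate responses (AT1G52890, chr1:19697004-19698482), had 101, 134 and 181 FPKM in clf-28 inflorescences and 179 and 181 FPKM in clf-28 shoots, against 107, 59.3 and 108 FPKM in WT inflorescences and 2.05, 3.96 and 4.76 FPKM in WT shoots (-4.75, adjusted p = 0.000725).

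In other genes the order of the organs was opposite in the genotypes. HAI1, a protein phosphatase that restrains abscisic acid signalling, had 16.1, 22.6 and 29.6 FPKM in clf-28 inflorescences, against 92.5 and 102 FPKM in clf-28 shoots (-2.09, adjusted p = 0.000580). WT inflorescences had 29.9, 29.9 and 24.4 FPKM, against 0.829, 2.85 and 2.8 FPKM in WT shoots (3.27, adjusted p = 0.000317), and the interaction was -5.36 (adjusted p = 0.000339). LEA7, a late embryogenesis abundant protein gene, had 40.5, 30.3 and 44.1 FPKM in clf-28 inflorescences and 329 and 243 FPKM in clf-28 shoots, against 8.51, 6.43 and 9.43 FPKM in WT inflorescences and 0.94, 0.585 and 0.822 FPKM in WT shoots (-5.21, adjusted p = 3.43e-05). COR15A, a cold-induced protein of the chloroplast, had 181, 141 and 214 FPKM in clf-28 inflorescences and 802 and 669.9 FPKM in clf-28 shoots, against 504, 276 and 248 FPKM in WT inflorescences and 19.6, 55.2 and 77.4 FPKM in WT shoots (-4.91, adjusted p = 0.00396). With clf-28 shoots replicate 3 put back, the organ difference of COR15A in clf-28 was -0.12 and no longer passed.

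LEA4-5, another late embryogenesis abundant protein gene, and ERF53, a drought-responsive transcription factor gene, were not on the list but ranked among the 10 lowest interactions with a symbol. LEA4-5 had 11.2, 10.8 and 15.3 FPKM in clf-28 inflorescences and 57.6 and 58.4 FPKM in clf-28 shoots, against 5.91, 11.5 and 12.7 FPKM in WT inflorescences and 0.451, 1.55 and 1.43 FPKM in WT shoots (-4.50). ERF53 had 3.25, 3.52 and 2.42 FPKM in clf-28 inflorescences and 74.9 and 62.3 FPKM in clf-28 shoots, against 2.03, 1.7 and 0.578 FPKM in WT inflorescences and 0.275, 0.829 and 1.72 FPKM in WT shoots (-4.45). RD22 and GolS1 show that the pattern did not cover the list: RD22 did not pass in either genotype, and GolS1 was higher in clf-28 inflorescences (1.22, adjusted p = 0.00612), with an interaction of -0.28 that did not pass. COR15B was listed at 0 in 3 WT libraries and at high levels in the others, so no value is given for it.

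Promoters of 4 genes from these sets are shown because they hold the letters CACGTG, the G-box core to which bZIP and bHLH factors are known to bind. They were chosen after their values were seen. The motif reads the same on both strands. Each sequence is the 250 bases before the gene start, 5′ to 3′ on the gene's strand, read from the RefSeq annotation of TAIR10.1, with CACGTG in capitals. RD20 lies on the minus strand (chr2:14146556-14146805) with the motif starting 68 bases before the gene start, and a second match lies outside the printed bases, within the 50 bases after the start. COR15A (chr2:17712331-17712580, minus strand), NAC019 (chr1:19698483-19698732, minus strand) and LEA7 (chr1:19619474-19619723, plus strand) hold it 28, 126 and 218 bases before the start.
RD20: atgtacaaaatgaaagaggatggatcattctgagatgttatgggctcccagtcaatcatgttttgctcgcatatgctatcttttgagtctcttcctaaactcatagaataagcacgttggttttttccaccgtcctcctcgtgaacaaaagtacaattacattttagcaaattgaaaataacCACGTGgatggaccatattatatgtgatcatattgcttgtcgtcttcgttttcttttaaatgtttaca
COR15A: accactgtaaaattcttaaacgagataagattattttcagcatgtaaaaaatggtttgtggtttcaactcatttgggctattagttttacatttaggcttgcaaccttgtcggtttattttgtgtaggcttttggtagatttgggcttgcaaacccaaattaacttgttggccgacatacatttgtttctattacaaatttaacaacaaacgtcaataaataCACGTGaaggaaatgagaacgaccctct
NAC019: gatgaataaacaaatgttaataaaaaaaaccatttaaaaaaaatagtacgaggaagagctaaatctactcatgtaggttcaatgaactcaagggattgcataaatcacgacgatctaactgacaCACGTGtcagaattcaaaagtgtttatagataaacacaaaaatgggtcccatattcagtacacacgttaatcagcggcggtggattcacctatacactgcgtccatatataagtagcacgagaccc
LEA7: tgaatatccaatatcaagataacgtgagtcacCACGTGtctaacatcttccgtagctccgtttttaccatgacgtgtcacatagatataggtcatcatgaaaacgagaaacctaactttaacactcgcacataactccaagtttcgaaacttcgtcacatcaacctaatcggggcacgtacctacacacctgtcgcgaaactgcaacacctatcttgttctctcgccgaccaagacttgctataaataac
Over the window from 250 bases before to 50 bases after the start, CACGTG occurred in 5 of the 20 dehydration genes (25.0%), in 4 of 17 jasmonate genes (23.5%), in 1702 of 19345 tested genes (8.80%) and in 2107 of 27443 protein-coding genes (7.68%). Genes with a lower organ difference in clf-28 had it in 144 of 785 promoters (18.3%) and those with a higher one in 11 of 180 (6.11%). It was also in 8 of 25 photosynthesis genes (32.0%), none of which passed the interaction test, and in GolS1. The dehydration genes HAI1, LTI65, RD29A and GolS2, whose interactions passed, did not hold it in this window. Among floral organ identity genes, 3 of 18 held CC and GG separated by any 6 bases, the loose form of the site known for MADS proteins (16.7%, against 21.5% of tested genes and 21.6% of all protein-coding genes), and 1 held CACGTG. These matches describe letters in a window and were not tested as binding sites.

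Jasmonate genes split by role. Of 19 listed, 17 were tested; in clf-28, 3 were at least 2-fold higher in inflorescences and 8 lower, against 9 higher and 2 lower in WT, and the interaction passed for 10, each with a lower value in clf-28. That count was 3 without clf-28 shoots replicate 1, 3 without clf-28 shoots replicate 2 and 4 without clf-28 inflorescences replicate 2. Their median organ difference was -0.21 in clf-28 and 1.39 in WT. The median genotype difference was 2.07 in shoots and 0.17 in inflorescences.

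Among the synthesis genes, AOC2, an allene oxide cyclase, had 7.09, 8.88 and 14.4 FPKM in clf-28 inflorescences, against 682 and 743 FPKM in clf-28 shoots (-6.05, adjusted p = 1.11e-05), and 9.13, 5.58 and 17.2 FPKM in WT inflorescences, against 101, 124 and 122 FPKM in WT shoots (-3.44). The interaction of -2.61 (adjusted p = 0.0195) was lost without clf-28 inflorescences replicate 2 (0.0591), clf-28 shoots replicate 1 (0.0896) or clf-28 shoots replicate 2 (0.0987). AOC2 was named as a large fall and is not on the list. OPR3, the reductase required for male fertility, had 47, 49.1 and 66.2 FPKM in clf-28 inflorescences and 178 and 173 FPKM in clf-28 shoots, against 47.9, 43.3 and 48.1 FPKM in WT inflorescences and 19.1, 20.8 and 21.6 FPKM in WT shoots. Its organ difference was -1.70 in clf-28 and 1.14 in WT, with an interaction of -2.84 (adjusted p = 0.000183).

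Of the JAZ repressors, JAZ10 had 72.9, 67.7 and 71 FPKM in clf-28 inflorescences, against 48.6 and 48 FPKM in clf-28 shoots. WT inflorescences had 81.3, 57.5 and 79.7 FPKM, against 7.34, 9.4 and 9.43 FPKM in WT shoots. The WT shoots stood apart below all other groups, and the interaction of -2.38 (SE 0.23, adjusted p = 0.000614) passed under every alternative run. JAZ1, JAZ2, JAZ5 and JAZ9 passed it as well (-2.04, -1.55, -2.42 and -2.10), and JAZ7 and JAZ8 did not (-1.60 and -1.20). When either clf-28 shoot library was left out, at most 1 of those 4 passed. The flower factors MYB21, MYB24 and MYB57, which act downstream of jasmonate in stamens, were the 3 members higher in clf-28 inflorescences. MYB21 had 98.3, 64.4 and 67.4 FPKM in clf-28 inflorescences, against 0.163 and 0.257 FPKM in clf-28 shoots, with differences of 5.98 in clf-28 and 6.07 in WT.

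**Figure D4:**
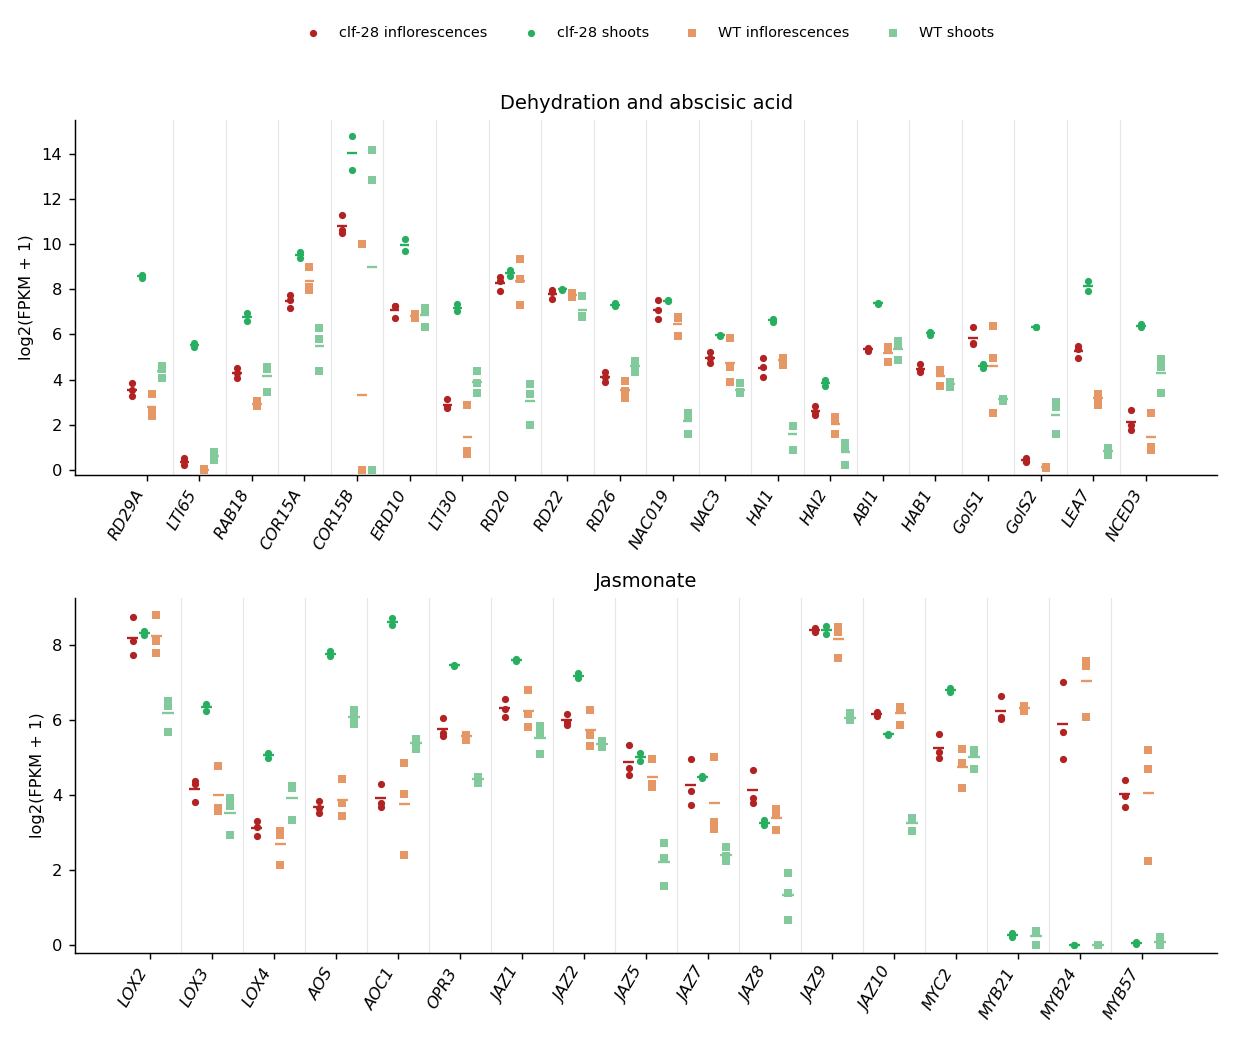
log2(FPKM + 1) in each library for the tested dehydration and jasmonate genes, with clf-28 as circles and WT as squares, inflorescences left of shoots, and bars at the mean of the log2 values. The clf-28 shoots lie above the WT shoots for each of the genes whose interaction passed, while MYB21 separates the organs alike in both genotypes. All interactions that passed in these lists were lower in clf-28, which in large part fixes that order of the shoots.

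Genes with a higher organ difference in clf-28 were fewer, and the 10 with a symbol and the highest interactions did not fall into 1 list. BHLH101, a bHLH factor of the iron deficiency response, had 11.2, 6.12 and 7.8 FPKM in clf-28 inflorescences and 62.8 and 56.1 FPKM in clf-28 shoots, against 0.656, 0.0766 and 0.0937 FPKM in WT inflorescences and 64.2, 57.9 and 66.7 FPKM in WT shoots (2.95, adjusted p = 0.00126). CYP71A13, of camalexin synthesis, had 19.9, 12.3 and 15.4 FPKM in clf-28 inflorescences and 22.6 and 20.2 FPKM in clf-28 shoots, against 1.66, 0.149 and 0.824 FPKM in WT inflorescences and 12.7, 27.9 and 23.5 FPKM in WT shoots (3.15, adjusted p = 0.00836), which did not pass when clf-28 shoots replicate 2 was left out (0.0527). In both genes the shoots of the genotypes overlapped or lay close together, and the clf-28 inflorescences stood above the WT inflorescences.

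IMS2, of methionine chain elongation for glucosinolates, differed in the other organ. It had 0.449, 0.433 and 0.531 FPKM in clf-28 inflorescences and 2.11 and 2.41 FPKM in clf-28 shoots, against 0.0812, 0.393 and 0.488 FPKM in WT inflorescences and 21, 15.2 and 18.3 FPKM in WT shoots (2.71, adjusted p = 0.000387). TPPH, a trehalose phosphate phosphatase, had 2.13, 1.49 and 1.53 FPKM in clf-28 inflorescences and 4.04 and 3.54 FPKM in clf-28 shoots, against 0.487, 0.699 and 1.26 FPKM in WT inflorescences and 10.1, 12.1 and 13.5 FPKM in WT shoots (2.02, adjusted p = 0.00363). For both, the clf-28 shoots lay wholly below the WT shoots. BHLH101, IMS2 and TPPH kept their calls in all 11 settings that left out 1 library.

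Epidermal and floral scent genes were on the inflorescence side in both genotypes. Of 8 flavonoid genes, 6 were at least 2-fold higher in clf-28 and 8 in WT, with medians of 1.34 and 2.28. CHS, chalcone synthase, had 168, 113 and 151 FPKM in clf-28 inflorescences, against 3.29 and 4.63 FPKM in clf-28 shoots (4.86, adjusted p = 9.41e-06). Of 8 cutin and wax genes, 6 were higher in each genotype, and CER1, of alkane synthesis, had 346, 204 and 237 FPKM in clf-28 inflorescences and 90.6 and 85.8 FPKM in clf-28 shoots, against 239, 336 and 395 FPKM in WT inflorescences and 14.7, 28.7 and 30.9 FPKM in WT shoots. Of 9 genes of flower volatiles and nectar, 8 were higher in each genotype, with medians of 5.76 in clf-28 and 4.90 in WT. SWEET9, the nectary sugar transporter, had 78.2, 57.2 and 67.5 FPKM in clf-28 inflorescences, against 0.0625 and 0 FPKM in clf-28 shoots (6.05, adjusted p = 1.70e-06).

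Cell division genes were tested as a measure of dividing tissue. Of 15 mitotic genes, 8 were at least 2-fold higher in clf-28 inflorescences and none in WT, with medians of 1.07 and 0.57, and 1 passed the interaction test. With a pseudocount of 5 FPKM the 8 became 3, and without both WT replicate 1 libraries 6 genes passed the interaction test. The 1 gene, the kinase gene AUR1, had 30.5, 32.7 and 32.2 FPKM in clf-28 inflorescences and 9.79 and 9.96 FPKM in clf-28 shoots, against 34, 37 and 38.1 FPKM in WT inflorescences and 16.7, 21.7 and 20.4 FPKM in WT shoots. Its interaction of 0.73 (adjusted p = 0.0389) was lost in 9 of 11 settings that left out 1 library, with adjusted p = 0.172 without clf-28 shoots replicate 1, and under the replicate block (0.70). The median genotype difference of the list was -0.77 in shoots. Of the 7 tested meiosis genes, 6 passed the test in clf-28 but none reached 2-fold in either genotype, whereas 5 did so in clf-28 with a pseudocount of 0.1 FPKM. HEI10, a crossover factor, stood apart within WT: its level was 1.4, 31.4 and 30.2 FPKM in WT inflorescences, against 1.16, 14.3 and 11.5 FPKM in WT shoots, so WT replicate 1 was low in both organs.

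Of 14 tested genes for Polycomb proteins and their opponents, 2 were at least 2-fold higher in clf-28 inflorescences and none lower, the same counts as in WT. Over all lines 18.1% were higher and 13.2% lower in clf-28, so the count of higher genes was near the share of all lines. VIN3, which acts with the complex in vernalization, had 1.86, 1.54 and 1.58 FPKM in clf-28 inflorescences, against 0.0107 and 0.0228 FPKM in clf-28 shoots, and ULT1, an opponent of Polycomb silencing, had 12.3, 12.5 and 13.2 FPKM, against 3.56 and 2.21 FPKM. SWN, the methyltransferase most like CLF, had 16.9, 14.5 and 12.1 FPKM in clf-28 inflorescences, against 16.8 and 14.3 FPKM in clf-28 shoots (-0.10, adjusted p = 0.598). Of 8 reference genes, UBQ10 was lower in clf-28 inflorescences (-1.27, adjusted p = 0.000991) and the other 7 were within 2-fold.

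**Figure D5:**
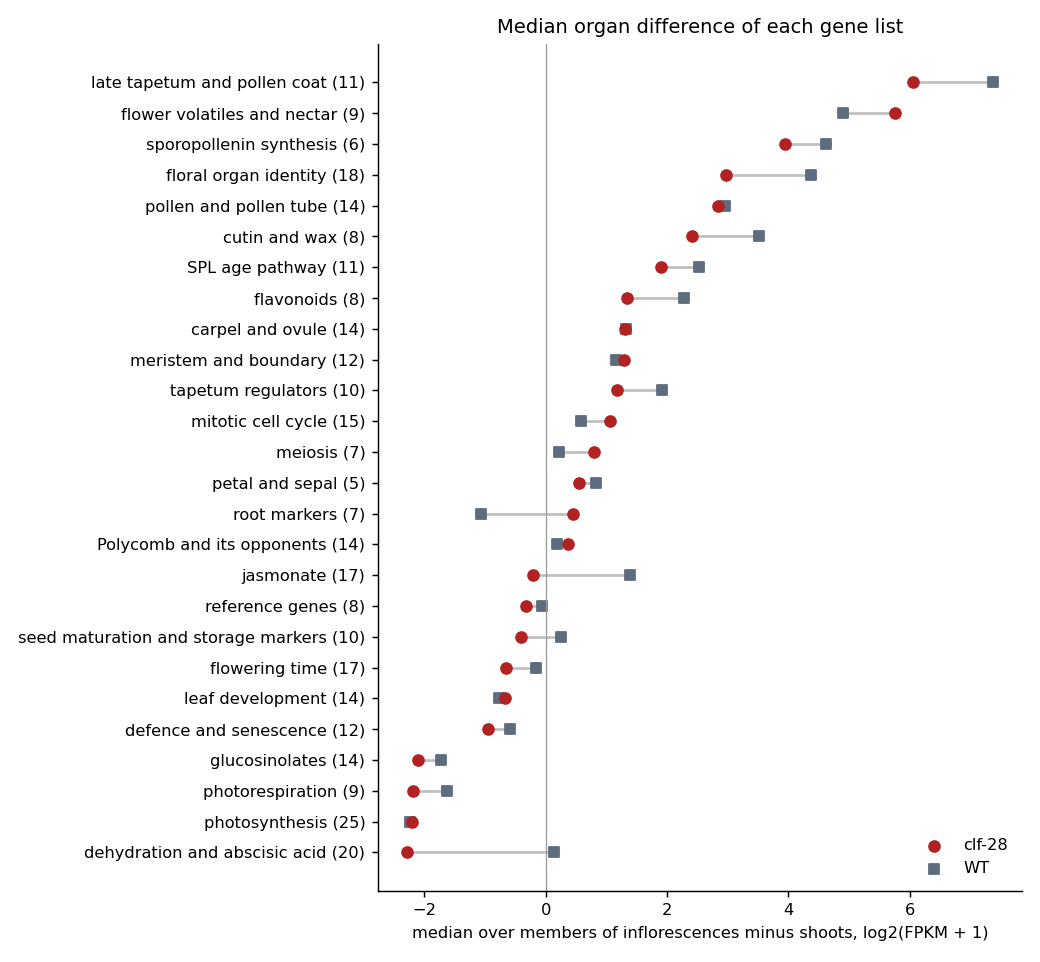
Median organ difference (inflorescences minus shoots, log2(FPKM + 1)) of each of the 26 gene lists with at least 5 tested members, with clf-28 as red circles, WT as grey squares and the number tested in parentheses. The lists run from late tapetum and pollen coat (6.05 in clf-28, 7.38 in WT) to the shoot-biased lists, and dehydration and abscisic acid genes have the medians -2.28 in clf-28 and 0.13 in WT.

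By class of transcript, 74 of 293 pseudogene lines (25.3%) and 111 of 368 lines with no annotated gene (30.2%) were at least 2-fold higher in clf-28 inflorescences, against 18.1% of all lines. Of 156 long non-coding RNA lines, 18 were higher and 25 lower. Of 52 microRNA gene lines, 7 were higher and 11 lower. MIR399b, a microRNA gene of the phosphate starvation response, was listed at 0 in all libraries but clf-28 shoots, where it had 9.91 and 45.2 FPKM (-4.49 in clf-28, adjusted p = 0.00283), and this call was lost under the replicate block (adjusted p = 0.0645).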

How the data were processed

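RNA-seq libraries of 3 clf-28 inflorescences and 2 clf-28 shoots, with 3 WT inflorescences and 3 WT shoots, were analysed. The authors deposited 1 table of FPKM, made with TopHat, Cufflinks and Cuffdiff on TAIR10 per the submitters' processing notes, with versions not given in the sources used here. Per the labels' protocols, total RNA was sequenced with a strand-specific kit. Values listed with a FAIL or HIDATA status in the table touched 37 lines, which were left out, and 48 columns of confidence bounds were not used. FPKM showed no whole-read steps (the commonest 1% ratio bin under 0.3 FPKM held 0.923% to 1.63% of lines), so read depth is unknown and no counting interval is given.

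Lines at 1 FPKM or more in at least 2 of the 11 libraries were tested with limma 3.58.1 (R 4.3.3) on log2(FPKM + 1), with an intensity trend and a robust prior, two-sided, and Benjamini-Hochberg adjustment over 22272 lines at 0.05. The clf-28 fit had 5 libraries and 3 residual degrees of freedom, the WT fit 6 and 4, and the interaction fit 11 and 7. The clf-28 fit was tried on simulated data for its 5 libraries, and the WT and interaction fits were not. The labels do not say that replicates came from separate plants, so p-values measure the spread between these libraries, which may be technical. Same-numbered WT inflorescences and shoots deviated together (r = 0.273, 0.214 and 0.165), and clf-28 had only 2 such pairs (0.205 and 0.138). The 2 clf-28 shoot libraries deviate from their mean by exact opposites, so these 2 pairs are not independent. For example, clf-28 inflorescences replicate 1 had 0.205 with clf-28 shoots replicate 1 and -0.205 with replicate 2. The unlike-numbered clf-28 inflorescences replicate 3 and clf-28 shoots replicate 2 had 0.129. Between the genotypes, same-numbered inflorescences had -0.117, -0.0305 and -0.215, and same-numbered shoots 0.129 and 0.0958. The pairing rests on these correlations, not on the labels, and a replicate block was fitted as an alternative. In the interaction fit the block is shared by both genotypes, a pairing that the inflorescences did not show.

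The members and the 27 gene lists were chosen with earlier results of these data known. Of 374 list entries, 316 were tested, 20 lay in merged loci, 36 were below the filter and 2 had a failed value. Named genes were CLF, the 12 largest called rises and 12 largest falls with a symbol and organs that did not overlap, the 10 highest and 10 lowest called interactions with a symbol, every floral identity and flowering time gene, and from each list up to 4 members by the organ test and 2 by the interaction. Outside that rule, SPL9, SPL13A, WUS, AS2, EXL4, TSM1, LHCB1.4, RBCS1A, COR15B, RD22, GolS1, TGG2, SWN, MYB24 and JAZ1, JAZ2, JAZ5, JAZ7, JAZ8 and JAZ9 were named after their values were seen. Genes on several lines are uncertain. Promoters came from the RefSeq annotation of TAIR10.1, on which 19977 of 19977 genes compared lay on the same chromosome as in the table and 19856 overlapped. Alternatives varied the pseudocount, filter, scaling, model and libraries. Python 3.11.15, pandas 2.3.3, numpy 2.4.6 and matplotlib 3.10.9 were used.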

Additional observations from a re-analysis of the deposited data

Results flagged for a closer look

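Each gene here differs between the genotypes in its organ difference, by the interaction test in limma (clf-28 minus WT, adjusted p under 0.05), and the value given is that interaction on the log2(FPKM + 1) scale. Of 54 named genes that passed, 27 kept the call in all 11 settings that left out 1 library. Why the genotypes differ was not tested.

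The lower values in clf-28 were led by the dehydration genes RD20 (-5.76), HAI1 (-5.36), LEA7 (-5.21), COR15A (-4.91), NAC019 (-4.75), LTI65 (-4.54), LEA4-5 (-4.50) and ERF53 (-4.45), with the floral gene AG at -5.04 and the microRNA gene MIR399b at -4.49. These 10 kept their calls in all 11 such settings. The flowering and floral genes SEP4 (-2.14), FT (-2.40) and AGL17 (-1.95), the jasmonate genes OPR3 (-2.84) and JAZ10 (-2.38) and the anther genes A9 (-1.26) and EXL6 (-1.33) did so too. SPL5 (-1.68) lost the call without clf-28 shoots replicate 1 alone.

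Further lower values lost their calls in 6 or more of the 11 settings that left out 1 library. NGA3 (-0.81), KNAT3 (-1.25), bHLH91 (-1.15) and MYB120 (-1.65) are described above. UGT74B1, of glucosinolate synthesis, had 16.1, 11.6 and 15 FPKM in clf-28 inflorescences and 53 and 50.2 FPKM in clf-28 shoots, against 16.5, 15.5 and 26.5 FPKM in WT inflorescences and 29.2, 27.9 and 26.4 FPKM in WT shoots (-1.27, lost in 7 of the 11). SAG12 (-2.67, lost in 9) and CER1 (-2.17, lost in 6) had adjusted p = 0.0896 and 0.0735 when clf-28 inflorescences replicate 2 was left out.

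Among the higher values, BHLH101 (2.95), IMS2 (2.71) and TPPH (2.02) kept their calls in all 11 settings and CYP71A13 (3.15) in 10. CRF4, a cytokinin response factor, had 10.8, 18.5 and 16.2 FPKM in clf-28 inflorescences and 7.92 and 9.27 FPKM in clf-28 shoots, against 9.38, 6.19 and 4.09 FPKM in WT inflorescences and 20.3, 19.9 and 21.8 FPKM in WT shoots (2.30). CRK30, a receptor-like kinase gene, had 0.359, 0.318 and 0.468 FPKM in clf-28 inflorescences and 1.06 and 1.38 FPKM in clf-28 shoots, against 0.383, 0.805 and 0.347 FPKM in WT inflorescences and 15, 9.24 and 6.69 FPKM in WT shoots (2.17). Both lost the call without clf-28 shoots replicate 1 (adjusted p = 0.0626 and 0.0654). bHLH38, an iron deficiency factor like BHLH101, had 28.7, 7.84 and 7.59 FPKM in clf-28 inflorescences and 53 and 45.2 FPKM in clf-28 shoots, against 0, 0.0676 and 0.0471 FPKM in WT inflorescences and 25.6, 24.5 and 18.4 FPKM in WT shoots (2.58, lost in 7 of the 11). BGAL2, a beta-galactosidase gene, had 30.9, 47.3 and 39.1 FPKM in clf-28 inflorescences and 54.1 and 53.8 FPKM in clf-28 shoots, against 21.9, 11.5 and 9.39 FPKM in WT inflorescences and 107, 76.1 and 73 FPKM in WT shoots (2.09, lost in 5).

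MEE3 (2.36, lost in 9 of the 11) and MIR850 (2.08, lost in 8) each lie on 2 lines of the table and are uncertain. ANX2 (0.86), AUR1 (0.73) and CLF (1.03) were each lost in 9 of the 11, with adjusted p = 0.157, 0.172 and 0.126 without clf-28 shoots replicate 1.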

How the results depend on the processing

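Leaving out 1 library at a time moved the count of called lines between 10209 and 15286 in clf-28, between 7866 and 12982 in WT and between 311 and 2585 for the interaction, and the slope between 0.841 and 0.889. With clf-28 shoots replicate 3 kept, 5315 lines were called in clf-28 and 174 for the interaction, the slope was 0.710, and 38 of 54 named interaction calls and 72 of 182 named clf-28 results were lost. The slope moved by more than its spread, or the interaction count by over 1.5 times, also under a pseudocount of 5 FPKM (slope 0.873), under quantile normalization (0.869) and on leaving out both WT replicate 1 libraries, chosen after seeing the data (slope 0.854, 2626 interaction lines). The cause was not tested. Signs turned under quantile normalization for LFY (-0.0137), CO (-0.40), NUB (-0.26), PTL (-0.11), ZYP1a (-0.28) and COBL9 (-0.19), and with clf-28 shoots replicate 3 kept for SEP4 (0.00714), NGA3 (0.0342), TT7 (-0.32) and FUS3 (-0.54). Quantile normalization shifted the median of all lines to -0.04 in clf-28 and -0.07 in WT, and the share of calls that were higher was then 46.9% in clf-28 and 46.6% in WT, against 58.0% and 63.7% on the deposited scale. With median-of-ratios scaling that share was 53.3% in clf-28 and 55.2% in WT. With the replicate block, 13608 lines were called in clf-28, 10790 in WT and 804 for the interaction, and beside the calls named above it ended those of CO, PTL, RPP4 and bHLH38 in clf-28 and of AGL71 (1.00), SAG12 (-2.68), MIR850 (2.00) and CLF (1.02) in the interaction, while NAC019, SESA2, SESA4 and CRU3 gained one in clf-28. With clf-28 shoots replicate 3 kept, members at least 2-fold lower in clf-28 numbered 0 for photosynthesis, 6 for dehydration, 4 for jasmonate and 1 for flowering time, 8 floral organ identity genes were higher, and lower interactions numbered 4, 3, 0 and 4 for dehydration, jasmonate, flowering time and floral organ identity. Of 183 named genes, 89 kept their clf-28 result under every alternative run, and 10 of 54 kept the interaction call. Read depth is unknown, so what was not detected cannot be told from what was absent.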

Other observations

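WT replicate 1 stood apart in both organs. In WT, 13 lines were at least 4-fold lower and 7 at least 4-fold higher in both replicate 1 libraries than in the other 4 libraries of the 2 organs, against 0 lower and 1 higher for replicate 2 and none for replicate 3. Of these 20 lines, 7 were nearer to replicate 1 in clf-28. HEI10 was among them, with 1.49, 2.24 and 1.95 FPKM in clf-28 inflorescences and 0.60 and 0.67 FPKM in clf-28 shoots.

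The seed storage transcripts of clf-28 moved together across libraries. clf-28 shoots replicate 2 was above replicate 1 for 9 of 9 storage and oil body genes, and clf-28 inflorescences replicate 1 was the lowest of its group for 9 of 9. SESA4, a 2S albumin, had 69.7, 141 and 104 FPKM in clf-28 inflorescences and 103 and 196 FPKM in clf-28 shoots, against 1.13, 1.36 and 0.73 FPKM in WT inflorescences and 0.394, 0.0608 and 0.187 FPKM in WT shoots. FUS3, a seed maturation regulator, did not follow them, with 5.18, 2.76 and 2.57 FPKM in clf-28 inflorescences and 0.634 and 0.631 FPKM in clf-28 shoots (1.42, adjusted p = 0.00351).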
